A study of Mus musculus with 12 samples.

Results

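Genes for ribosome biogenesis and RNA polymerase I were followed in mouse liver over the first day after removal of 2/3 of the organ. The set holds 38 genes for nucleolar assembly factors and RNA polymerase I subunits, taken as a fixed list of symbols and matched to array probes through their RefSeq accessions. A probe was found for 36 of the 38 genes, and all 36 passed the filter on dim probes, out of 17004 named genes that passed it. Wdr43 and Noc2l had no probe that matched and are not analysed here. The samples were livers of male wild-type C57BL/6 mice aged 6 weeks, taken at 0, 1.5, 12 and 24 h after 2/3 partial hepatectomy. Each time point had 3 mice per the labels, the 12 arrays were read as 1 mouse each, and mice of different time points were taken as different animals. All groups are labelled as hepatectomised, the 0 h livers included, and no sham-operated mice were analysed here, so a response to surgery and a response to loss of tissue cannot be told apart. RNA was labelled with 1 dye and hybridised to a 4 x 44K array that carries probes for messenger and long noncoding RNAs.

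Ribosomes are made in the nucleolus. RNA polymerase I transcribes the long ribosomal RNA precursor, the small subunit processome folds and cleaves it, small nucleolar ribonucleoproteins (snoRNPs) guide its chemical modification, and further factors turn the pieces into small and large subunits that leave the nucleus. In a liver that regrows after partial hepatectomy, hepatocytes leave quiescence, enlarge and replicate their DNA, and growing cells need more ribosomes. Many genes of this pathway are known targets of the transcription factor Myc.

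Levels are on a log2 scale, each processed signal being set against the 75th percentile of its own array, so a level of 0 is a signal at that percentile and a difference of 1 is a 2-fold change. Levels of different genes come from different probes and are not compared. Differences were tested with limma on all 12 arrays, and a gene was called where its Benjamini-Hochberg adjusted p over 31172 probes was under 0.05. The ± after a log2 fold change is its standard error in that model. These errors and p-values rest on how far replicate arrays lie apart, with all 4 time points pooled.

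The 24 h replicate 2 array stood apart from the other 11. Its 75th percentile signal was 6018 intensity units, against 428 to 584 on the other 11 arrays, and it correlated at 0.912 and 0.906 with the other 24 h arrays, which correlated at 0.986 with each other. Over the 36 genes its level lay a median of 0.71 away from the mean of the other 24 h arrays, and for 18 genes it lay outside the range of all other 11 arrays. Because the model pools the spread, this array also widens the errors of comparisons without 24 h samples. Counts of called genes among the 36 are therefore given with it and without it. Values of single genes and of role groups are from all 12 arrays unless stated otherwise. Per the scan times in the file headers, the arrays were read in 4 scans, of which none held 0 h arrays together with 12 h or 24 h arrays.

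The 36 genes as a group lay highest at 12 h. The median over the genes of the level minus the 0 h mean was -0.15, 0.04 and 0.09 on the 0 h arrays, -0.03, 0.04 and -0.09 on the 1.5 h arrays, 0.64, 0.39 and 0.76 on the 12 h arrays, and -0.01, 0.57 and 0.16 on the 24 h arrays. The 12 h mean was the highest of the 4 time points for 24 of 36 genes, and for 29 of 36 without the 24 h replicate 2 array. The share of all probes with their highest mean at 12 h was not counted. With all arrays, the median log2 fold change over all probes was 0.42 at 12 h against 0 h and -0.49 at 24 h against 12 h. A peak at 12 h by itself thus does not set these genes apart. An F test for any difference from 0 h passed for 7 of 36 genes, against 16.2% of all probes, and for 20 of 36 without that array, against 44.3%. The shares of the 36 genes thus lie near those of all probes.

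**Figure D1:**
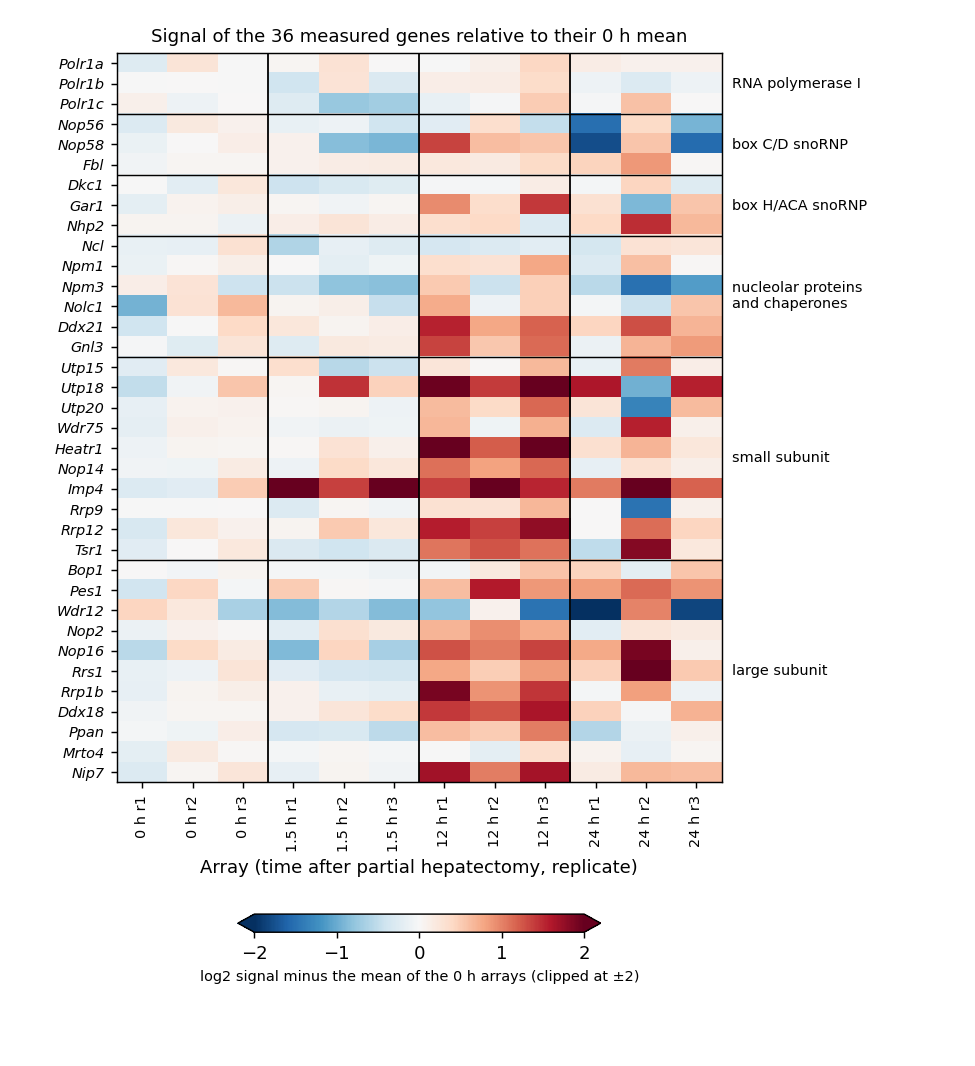
Level of each of the 36 genes (down the page, by role) on each of the 12 arrays (across, by time after surgery and replicate) relative to the mean of the 0 h arrays, on a log2 scale clipped at ±2. Most rows are red on the 3 arrays at 12 h, and the column of 24 h replicate 2 differs from the other 24 h columns.

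At 12 h, 7 of the 36 genes were higher than at 0 h and 0 were lower. The 7 were Heatr1, Rrp12 and Nop14 of the small subunit pathway, Nip7, Ddx18 and Rrp1b of the large subunit pathway, and the nucleolar helicase Ddx21. Over all probes 7.05% were called higher and 8.26% lower, while 19.4% of the 36 genes were called higher. Without the 24 h replicate 2 array 19 of the 36 genes (52.8%) were called higher and 0 lower, against 32.6% and 16.6% of all probes, and the 7 were among the 19. The median log2 fold change of the 36 genes was 0.71, and 33 of 36 values were above 0, as were 20499 of all 31172 probes. The median over all probes was itself 0.42, and over probes with an NM (messenger RNA) accession 0.25, so the genes' median stood 0.46 above that of messenger RNA probes. The 12 h and 0 h arrays did not overlap for 23 genes in the higher direction and 1 in the lower, where 40.7% and 20.8% of all probes did not overlap. Heatr1, Rrp12, Nip7 and Ddx18 stayed called whichever array was left out, whereas Ddx21, Nop14 and Rrp1b were lost, leaving 4 called, without 0 h replicate 1, without 0 h replicate 2 and without 12 h replicate 1. Ddx21 and Nop14 were also lost without 12 h replicate 3, and Ddx21 without 1.5 h replicate 2 or replicate 3. With normexp background correction 1 of the 36 genes was called, and with scan as a fixed block 1. Over all probes 943 to 10173 were called higher as each array was left out in turn, so the number called depends on the fit for all probes. In whole tissue, more cells that express a gene and more RNA per cell cannot be told apart.

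The small subunit factors had the highest median of the role groups, a log2 fold change of 1.08 over 10 measured genes, of which all 10 were above 0 and 3 were called. Heatr1, a large scaffold protein of the small subunit processome, read 2.32, 2.48 and 2.47 at 0 h, 2.45, 2.71 and 2.53 at 1.5 h, 4.62, 3.63 and 4.45 at 12 h, and 2.74, 3.10 and 2.65 at 24 h. The 3 arrays at 12 h lay above all others, and 24 h replicate 2 was the highest of the rest. Its log2 fold change at 12 h against 0 h was 1.81 ± 0.29 (adjusted p = 0.0023), the largest among the 7 called genes. Rrp12, which acts in maturation and export of small subunit precursors, read 0.83, 1.37 and 1.23 at 0 h, 1.19, 1.66 and 1.37 at 1.5 h, 2.71, 2.51 and 2.91 at 12 h, and 1.15, 2.25 and 1.57 at 24 h. Again the 12 h arrays were the highest 3, and 24 h replicate 2 came next, apart from the other 24 h arrays. The change at 12 h against 0 h was 1.57 ± 0.31 (adjusted p = 0.0074). Nop14, a processome subunit, read 1.35, 1.34 and 1.59 at 0 h, 1.32, 1.81 and 1.65 at 1.5 h, 2.52, 2.24 and 2.58 at 12 h, and 1.27, 1.74 and 1.54 at 24 h. Its 12 h arrays lay clear of the other 9, which overlapped one another, and the change against 0 h was 1.02 ± 0.24 (adjusted p = 0.018).

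Utp18, Utp20, Tsr1 and Imp4 joined the called small subunit genes at 12 h only without the 24 h replicate 2 array. Utp18, a processome subunit, read -3.80, -3.37 and -2.75 at 0 h, -3.27, -1.87 and -2.84 at 1.5 h, -1.34, -1.91 and -1.25 at 12 h, and -1.68, -4.26 and -1.76 at 24 h. Its levels at 24 h were split, with replicate 2 below every other array and the other 2 near the 12 h levels. The change at 12 h against 0 h was 1.80 ± 0.64 with an adjusted p of 0.082 in the fit of all arrays and 0.0043 without replicate 2. Tsr1, a factor of late small subunit precursors that resembles a GTPase, read 1.13, 1.36 and 1.57 at 0 h, 1.06, 0.96 and 1.06 at 1.5 h, 2.42, 2.62 and 2.44 at 12 h, and 0.84, 3.19 and 1.56 at 24 h. At 12 h the arrays differed little and lay above those of 0 h and 1.5 h, while 24 h replicate 2 was the highest of all. Its change against 0 h was 1.14 ± 0.47 (adjusted p = 0.12, and 0.0025 without 24 h replicate 2). Utp20, a processome scaffold protein, read -0.67, -0.44 and -0.42 at 0 h, -0.50, -0.46 and -0.62 at 1.5 h, 0.12, -0.14 and 0.63 at 12 h, and -0.25, -1.85 and 0.13 at 24 h. The 12 h arrays lay above those of 0 h and 1.5 h, 24 h replicate 2 was again below all other arrays, and the change at 12 h against 0 h was 0.72 ± 0.44 (adjusted p = 0.27, and 0.022 without that array).

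Imp4, a processome protein that binds the precursor RNA, read 0.98, 1.02 and 1.76 at 0 h, 3.28, 2.63 and 3.51 at 1.5 h, 2.63, 3.93 and 2.77 at 12 h, and 2.29, 6.90 and 2.43 at 24 h. All arrays after surgery lay above all 0 h arrays, and the 24 h replicate 2 value stood 4.54 above the mean of the other 2 arrays at 24 h. At 1.5 h against 0 h the log2 fold change was 1.89 ± 0.99 (adjusted p = 0.77, and 0.059 without that array), and at 12 h against 0 h it was 1.86 ± 0.99 (adjusted p = 0.21, and 0.0037 without it). The other small subunit genes, Utp15, Wdr75 and Rrp9, had log2 fold changes of 0.30 to 0.42 at 12 h against 0 h and were called in neither fit.

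**Figure D2:**
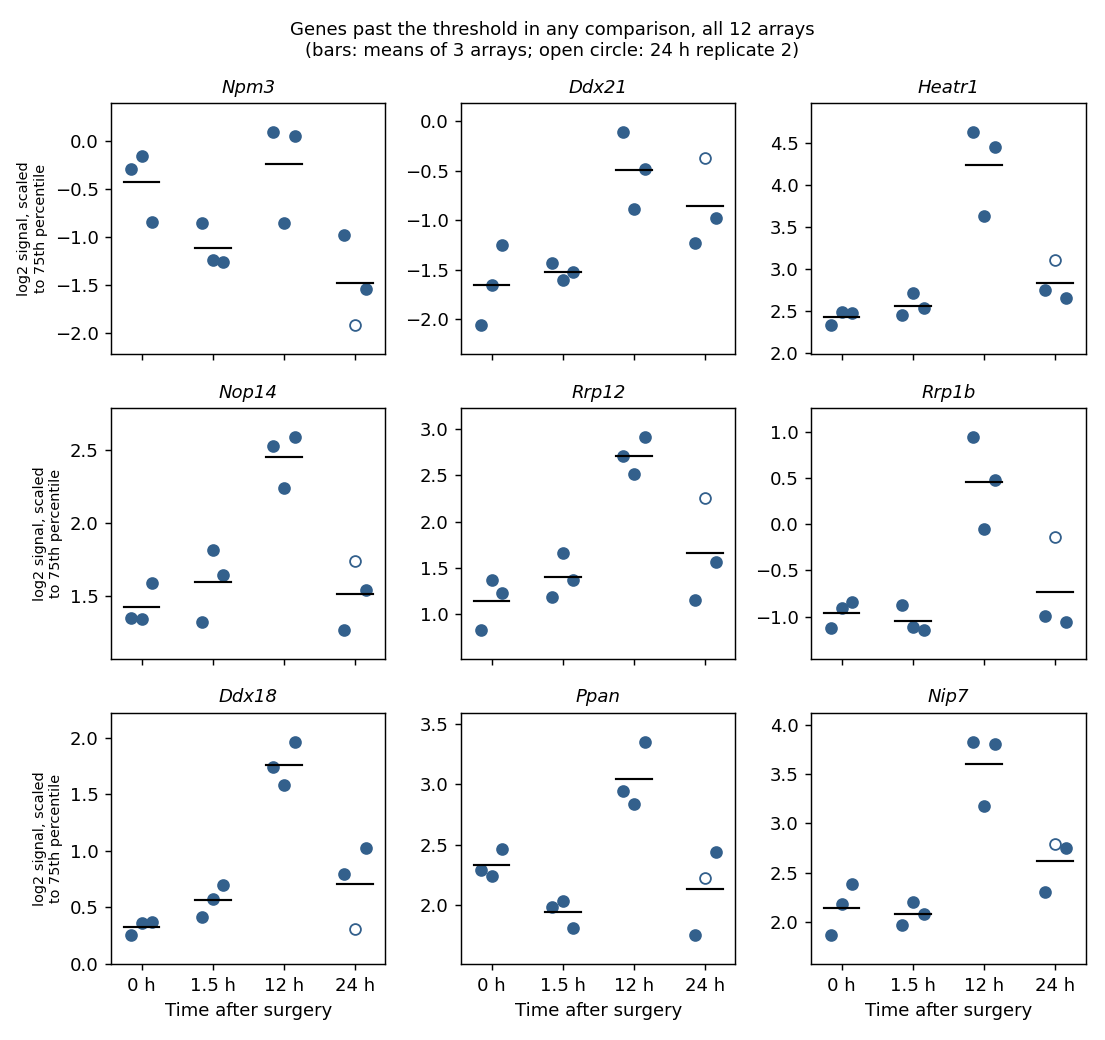
Level of the 9 genes called in at least 1 comparison of the fit with all 12 arrays, by time after surgery; each circle is 1 array, bars are means of 3, and the open circle is 24 h replicate 2. For 7 of the 9 genes the 12 h arrays lie above all other arrays of 0, 1.5 and 24 h; Npm3 and Ddx21 are the exceptions.

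Of the 11 measured large subunit genes, 3 were called higher at 12 h against 0 h, and the median log2 fold change was 0.79. Nip7, which acts in large subunit assembly and precursor processing, read 1.87, 2.18 and 2.38 at 0 h, 1.97, 2.21 and 2.08 at 1.5 h, 3.82, 3.17 and 3.80 at 12 h, and 2.30, 2.79 and 2.75 at 24 h. Levels at 12 h were again above all others, and the change was 1.45 ± 0.27 (adjusted p = 0.0055). Ddx18, an RNA helicase of the large subunit pathway, read 0.25, 0.36 and 0.37 at 0 h, 0.41, 0.57 and 0.70 at 1.5 h, 1.74, 1.58 and 1.96 at 12 h, and 0.79, 0.31 and 1.03 at 24 h. Its arrays were tight within 0, 1.5 and 12 h, the 12 h arrays lay above the rest, and the change was 1.44 ± 0.25 (adjusted p = 0.0037). Rrp1b, a nucleolar protein related to a yeast large subunit factor, read -1.12, -0.91 and -0.84 at 0 h, -0.88, -1.11 and -1.15 at 1.5 h, 0.94, -0.05 and 0.48 at 12 h, and -0.99, -0.13 and -1.06 at 24 h. All 12 h arrays lay above all others, though 12 h replicate 2 and 24 h replicate 2 differed little, and the change was 1.41 ± 0.32 (adjusted p = 0.015).

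Nop2 and Pes1 narrowly missed the threshold at 12 h. Nop2, a methyltransferase for ribosomal RNA of the large subunit, read 2.30, 2.50 and 2.44 at 0 h, 2.20, 2.74 and 2.62 at 1.5 h, 3.10, 3.35 and 3.16 at 12 h, and 2.20, 2.65 and 2.60 at 24 h. At 12 h all arrays lay above the rest, and the change of 0.79 ± 0.24 had an adjusted p of 0.0502, and of 0.01 without 24 h replicate 2. Ppan, a large subunit assembly factor, read 2.29, 2.24 and 2.46 at 0 h, 1.99, 2.03 and 1.81 at 1.5 h, 2.94, 2.83 and 3.35 at 12 h, and 1.75, 2.22 and 2.44 at 24 h. Its 1.5 h arrays were below its 0 h arrays and its 12 h arrays above them, with a change of 0.71 ± 0.26 at 12 h against 0 h (adjusted p = 0.084, and 0.023 without 24 h replicate 2). Nop16, a large subunit assembly factor, read -3.93, -3.01 and -3.24 at 0 h, -4.27, -2.97 and -4.06 at 1.5 h, -2.12, -2.36 and -2.04 at 12 h, and -2.64, -1.49 and -3.29 at 24 h. It changed by 1.22 ± 0.48 (adjusted p = 0.11, and 0.02 without that array). Rrs1, which helps to place a small ribosomal RNA in the large subunit, read 1.56, 1.62 and 1.97 at 0 h, 1.48, 1.38 and 1.34 at 1.5 h, 2.50, 2.20 and 2.57 at 12 h, and 2.18, 4.07 and 2.24 at 24 h. Its 24 h replicate 2 value was the highest of the 12, and its change of 0.71 ± 0.44 at 12 h passed only without that array (adjusted p = 0.27 with it and 0.01 without). Mrto4, which holds the place of the ribosomal stalk proteins, stayed between 2.29 and 2.84 on all 12 arrays.

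Pes1, Bop1 and Wdr12 form one complex of large subunit maturation, and their levels did not follow one course. Pes1 read -0.56, 0.24 and -0.20 at 0 h, 0.33, -0.15 and -0.20 at 1.5 h, 0.44, 1.41 and 0.70 at 12 h, and 0.66, 0.95 and 0.72 at 24 h. The 12 h arrays lay above the 0 h arrays and overlapped those of 24 h, with a change of 1.02 ± 0.32 at 12 h against 0 h (adjusted p = 0.052, and 0.017 without 24 h replicate 2). Bop1 lay between 1.90 and 2.66 on all arrays and changed by 0.24 ± 0.27 (adjusted p = 0.53). Wdr12 read -4.01, -4.23 and -5.10 at 0 h, -5.31, -5.04 and -5.31 at 1.5 h, -5.23, -4.37 and -5.93 at 12 h, and -7.20, -3.46 and -6.29 at 24 h. It was well above background on 7 of 12 arrays, and on 24 h replicate 2 alone of the 24 h arrays. Its change at 12 h was -0.73 ± 0.79 (adjusted p = 0.51). The difference between these 3 genes was not tested.

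Among the abundant nucleolar proteins, 1 of 6 was called at 12 h. Ddx21, a helicase that links RNA polymerase I transcription to precursor processing, read -2.06, -1.66 and -1.25 at 0 h, -1.43, -1.60 and -1.53 at 1.5 h, -0.11, -0.88 and -0.48 at 12 h, and -1.23, -0.37 and -0.98 at 24 h. The 12 h arrays lay above those of 0 h and 1.5 h, and the change was 1.17 ± 0.32 (adjusted p = 0.032). Gnl3 (nucleostemin, a nucleolar GTPase) read 1.84, 1.63 and 2.13 at 0 h, 1.61, 2.06 and 2.03 at 1.5 h, 3.21, 2.40 and 3.01 at 12 h, and 1.75, 2.55 and 2.72 at 24 h. Its 12 h and 24 h arrays overlapped, and its change of 1.01 ± 0.33 at 12 h had an adjusted p of 0.061, and of 0.02 without 24 h replicate 2. Npm1, Npm3, Nolc1 and Ncl, which serve as chaperones and organisers of the nucleolus, had log2 fold changes of -0.27 to 0.46 and were called in neither fit. Ncl, well above background on 10 of 12 arrays, was the gene whose 12 h arrays all lay below its 0 h arrays. The 4 probes of Nolc1 gave changes of 0.37 to 0.53 and no call.

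The snoRNP proteins and RNA polymerase I subunits had the lowest medians at 12 h, with log2 fold changes of 0.26 over 3 box C/D proteins, 0.16 over 3 box H/ACA proteins (the value of Nhp2, whose probe was not well above background at 0 h) and 0.17 over 3 RNA polymerase I subunits. None of these 9 genes was called with all 12 arrays. Nop58, a core protein of the box C/D snoRNPs that guide methylation, read -1.59, -1.44 and -1.33 at 0 h, -1.37, -2.30 and -2.37 at 1.5 h, -0.10, -0.84 and -0.90 at 12 h, and -3.22, -0.90 and -2.99 at 24 h. The 12 h arrays lay above those of 0 h and 1.5 h, and the change was 0.84 ± 0.55 (adjusted p = 0.29, and 0.04 without 24 h replicate 2). Its partner Nop56 read 2.30, 2.76 and 2.65 at 0 h, 2.43, 2.47 and 2.18 at 1.5 h, 2.34, 2.91 and 2.10 at 12 h, and 1.06, 2.96 and 1.64 at 24 h. The 12 h and 0 h arrays overlapped, with a change of -0.12 ± 0.43 (adjusted p = 0.84). Gar1, of the box H/ACA snoRNPs that guide pseudouridylation, read -1.57, -1.32 and -1.26 at 0 h, -1.34, -1.46 and -1.34 at 1.5 h, -0.44, -1.03 and 0.03 at 12 h, and -1.08, -2.28 and -0.82 at 24 h. Its 12 h arrays lay above the 0 h arrays, with a change of 0.90 ± 0.39 (adjusted p = 0.13, and 0.015 without that array).

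Fbl, the box C/D methyltransferase, had a log2 fold change of 0.26 and Dkc1, the box H/ACA pseudouridine synthase, one of 0.03, and both were called in neither fit. Dkc1 read 0.31, 0.28 and 0.47 at 12 h, against 0.31, 0.12 and 0.55 at 0 h. Nhp2, a box H/ACA protein, was well above background on 6 of 12 arrays and on none at 0 h, so no fold is given at 12 h against 0 h, and it was called in neither fit. Polr1a, the largest RNA polymerase I subunit, lay between 1.43 and 2.10 on all 12 arrays and changed by 0.17 ± 0.23 at 12 h against 0 h (adjusted p = 0.61). Polr1b, the second largest subunit, read 1.43, 1.45 and 1.66 at 12 h, against 1.30, 1.31 and 1.29 at 0 h. These arrays did not overlap, yet the change of 0.21 ± 0.24 was small and not called (adjusted p = 0.53). Polr1c, which RNA polymerases I and III share, changed by 0.12 ± 0.28 (adjusted p = 0.77).

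**Figure D3:**
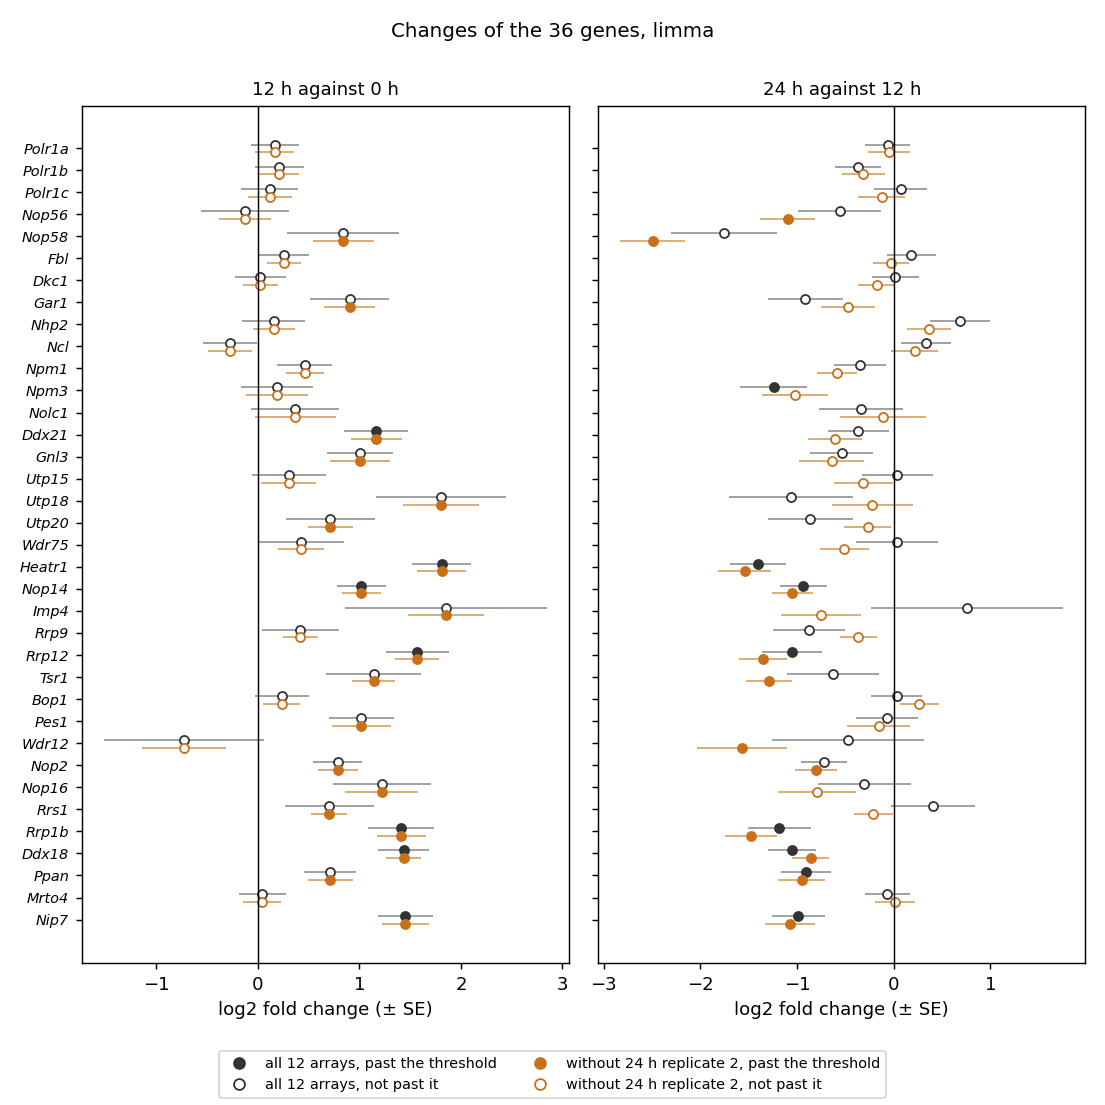
Log2 fold change with its standard error for each of the 36 genes at 12 h against 0 h (left) and 24 h against 12 h (right), in the fit of all 12 arrays (grey) and without 24 h replicate 2 (orange); filled circles passed the adjusted p threshold. On the left 7 grey and 19 orange circles are filled, all above 0, and on the right 8 grey and 12 orange, all below 0.

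At 1.5 h, 0 of the 36 genes were called against 0 h in either fit, with 0 at an unadjusted p under 0.05 in the limma fit of all arrays. Over all probes 0.0225% were called higher and 0% lower, and without 24 h replicate 2 these shares were 0.507% and 0.0866%. The genes' median log2 fold change was -0.07, where that over all probes was 0.17. Of the genes' values 14 of 36 were above 0, as were 19386 of all 31172 probes. The 1.5 h arrays lay wholly above those of 0 h for 4 genes and wholly below for 7, where 16.4% and 9.26% of all probes did so. Polr1c was among the 7, with 1.36, 0.84 and 0.91 at 1.5 h, against 1.71, 1.50 and 1.62 at 0 h. Its change was -0.57 ± 0.28 (adjusted p = 0.77). Myc itself, which is not one of the 38 genes, read 0.57, 0.12 and -0.07 at 0 h, 1.90, 1.35 and 1.61 at 1.5 h, 0.17, -0.10 and 0.34 at 12 h, and -1.04, 0.42 and 0.09 at 24 h. It was highest at 1.5 h, where its change against 0 h was 1.41 ± 0.37 (adjusted p = 0.51, and 0.072 without 24 h replicate 2), and it was lower at 12 h than at 1.5 h, with a log2 fold change of -1.49 ± 0.37 (adjusted p = 0.032).

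Between 1.5 and 12 h, 6 of the 36 genes were higher at 12 h and 0 lower, against 3.32% and 5% of all probes. They were Heatr1, Nip7, Ddx18, Rrp1b, Ppan and Rrp12, with log2 fold changes of 1.10 to 1.67. Without 24 h replicate 2 the count was 17 higher and 0 lower, against 9.77% and 10.3% of all probes. Of the 17, Polr1c (0.69 ± 0.22, adjusted p = 0.049 without 24 h replicate 2) was the gene not called at 12 h against 0 h. The median over the 36 genes was 0.71, and over all probes it was 0.15. Heatr1 and Nip7 stayed called whichever array was left out. The count was 3, 2 and 3 without 1.5 h replicates 1, 2 and 3, and 2 without 12 h replicate 1 or 12 h replicate 3. With normexp background correction it was 0. Over all probes 480 to 3047 were called higher in this interval as each array was left out in turn. This interval could also be read within a single scan, which held 2 arrays each of 12 h and 1.5 h. There the median difference over the 36 genes was 0.64, 33 of 36 were above 0, and the median over all probes was 0.09. How many of all probes were above 0 in that scan was not counted. The within-scan differences were 1.51 for Heatr1, 1.57 for Rrp1b, 1.35 for Nip7, 1.09 for Rrp12, 1.03 for Ddx18 and 0.97 for Ppan. With scan as a fixed block on 11 arrays, all 6 stayed called among 10 genes higher at 12 h than at 1.5 h. The share of all probes called in that fit is not given here, so this count is not set against it. The comparison of 12 h with 0 h has no such direct reading, since no scan held both, and with the scan block 1 gene, Nop58, was called. The log2 fold changes of the 7 genes at 12 h against 0 h were then 1.53 for Heatr1, 1.15 for Rrp12, 0.55 for Nop14, 1.19 for Nip7, 1.12 for Ddx18, 1.66 for Rrp1b and 1.30 for Ddx21, all above 0, with adjusted p-values of 0.051 to 0.34. In that fit the value of Nop14 lay furthest from its value in the fit of all arrays. The block fit links 12 h to 0 h only through the 1.5 h arrays, of which 1, replicate 1, shared the scan of the 0 h arrays. These values thus rest on that 1 array of another time point.

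At 24 h, 6 of the 7 genes called at 12 h against 0 h were lower than at 12 h, Ddx21 being the other. Both comparisons use the same 12 h arrays, so picking genes that were high there favours a lower reading at 24 h, and this overlap is no separate evidence of a fall. In all, 8 of the 36 genes were lower at 24 h than at 12 h and 0 higher, where 6.78% and 6.26% of all probes were. They were Heatr1, Npm3, Rrp1b, Ddx18, Rrp12, Nip7, Nop14 and Ppan, with log2 fold changes of -1.40 to -0.91. Heatr1 was lower by 1.40 ± 0.29 (adjusted p = 0.018). Without 24 h replicate 2, 12 genes were lower and 0 higher, against 7.4% and 8.37% of all probes; Npm3 was then no longer called (adjusted p = 0.063), and Nop58, Nop56, Tsr1, Nop2 and Wdr12 were added, Wdr12 with neither remaining 24 h array well above background. Its 12 h mean lies under the lowest signal called well above background on those arrays, so no drop against 12 h is shown for Wdr12. The count was 1, 2 and 2 without 0 h replicates 1, 2 and 3, and 2 without 1.5 h replicate 2 or 1.5 h replicate 3. It was 0, 4 and 1 without 12 h replicates 1, 2 and 3, and 3 without 24 h replicate 1. Over all probes 64 to 7589 were called lower as each array was left out in turn. These counts thus show only how far the calls depend on the fit. Npm3, a chaperone related to Npm1, read -0.29, -0.16 and -0.84 at 0 h, -0.86, -1.24 and -1.27 at 1.5 h, 0.09, -0.86 and 0.05 at 12 h, and -0.98, -1.92 and -1.55 at 24 h. Its 24 h arrays lay below its 12 h arrays, and its 1.5 h arrays had been low as well. The median over the genes was -0.42, where it was -0.49 over all probes and -0.14 over messenger RNA probes. Without 24 h replicate 2 it was -0.55 over the genes, -0.22 over all probes and -0.08 over messenger RNA probes. In the scan that held 2 arrays of 24 h and 1 of 12 h, the median difference was -0.72 over the genes and -0.15 over all probes, and 2 of 36 genes were above 0. The number of all probes above 0 in that scan was not counted. With scan as a fixed block 8 genes were again called lower, but Nip7 (adjusted p = 0.056) and Npm3 (adjusted p = 0.10) were not among them, while Nop58 (adjusted p = 0.0098) and Npm1 (adjusted p = 0.043) were. With normexp background correction, or in a fit of the 12 h and 24 h arrays alone, 0 of the 36 genes were called lower at 24 h than at 12 h. No share of all probes is given here for the block fit or these last fits, so their counts are not set against one.

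Nop58 fell furthest without the 24 h replicate 2 array, by 2.49 ± 0.34 against 12 h (adjusted p = 0.0023). With that array the change was -1.76 ± 0.55 (adjusted p = 0.055), that array reading -0.90 where the other 24 h arrays read -3.22 and -2.99. Within the scan shared by 24 h and 12 h, Nop58 differed by -2.20.

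**Figure D4:**
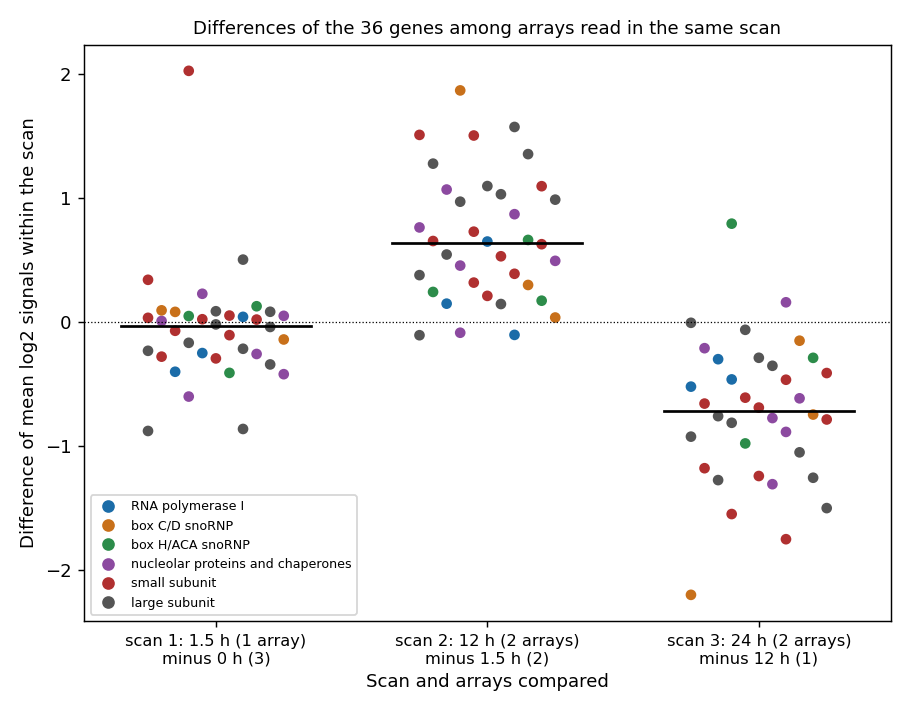
Difference of mean levels for each of the 36 genes (circles, coloured by role) among arrays read in the same scan: 1.5 h minus 0 h, 12 h minus 1.5 h, and 24 h minus 12 h, with the number of arrays in brackets and the median as a bar. The medians are -0.03, 0.64 and -0.72.

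Set directly against 0 h, 0 of the 36 genes were called at 24 h, where 2.84% of all probes were higher and 2.62% lower, and in the limma fit 6 genes had an unadjusted p under 0.05. Without 24 h replicate 2, 1 gene was higher and 3 were lower, against 10.3% and 6.67% of all probes. The higher gene was Utp18 (1.58 ± 0.42, adjusted p = 0.029). Lower were Nop58 (-1.65 ± 0.34, adjusted p = 0.011), Nop56 (-1.22 ± 0.28, adjusted p = 0.018) and Wdr12 (adjusted p = 0.011). No scan held both 24 h and 0 h arrays, and with scan as a fixed block none of these genes was called. The block links these times only through 1.5 h and 12 h arrays, of which 1 of 1.5 h shared the 0 h scan and 1 of 12 h the 24 h scan. In that limma fit Utp18 changed by 0.29 (adjusted p = 0.94) and Nop58 by -0.25 (adjusted p = 0.90). Nop56 changed by -0.59 (adjusted p = 0.76), and Wdr12 had an adjusted p of 0.65. Both remaining Wdr12 arrays at 24 h were not well above background, so its signal gives a bound, at least 1.38-fold lower at 24 h than at 0 h. The bound sets the 0 h mean against the higher of the probe's own signal and the lowest signal called well above background on each 24 h array. Nhp2 read -4.88, -3.80 and -4.62 at 24 h, against -5.21, -5.22 and -5.39 at 0 h. No 0 h array was well above background, so the difference is only a bound, at least 1.33-fold higher at 24 h than at 0 h, and it was not called (adjusted p = 0.14). At 24 h replicate 3 was not well above background either. Without 24 h replicate 2 the Nhp2 mean at 24 h was -4.75, close to the 0 h level of -4.84 used in the bound, and Nhp2 was again not called (adjusted p = 0.14). The genes' median was 0.21 with all arrays and 0.08 without 24 h replicate 2. Over all probes it was -0.15 and 0.13, so the genes' median lay above that of all probes with 24 h replicate 2 and slightly below it without that array.

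A longer list of 105 other ribosome biogenesis genes, of which 103 had a kept probe, was read beside them. At 12 h against 0 h, 18 of the 103 were higher and 3 lower, where 7.05% and 8.26% of all probes were. Without 24 h replicate 2, 50 were higher and 7 lower, where 32.6% and 16.6% of all probes were. The number higher was 4, 7 and 7 without 0 h replicates 1, 2 and 3, 12 without 1.5 h replicate 3, and 6, 11 and 7 without 12 h replicates 1, 2 and 3. Over all probes it was 943 to 10173 as each array was left out in turn. The median log2 fold change of the 103 genes was 0.45. Gnl2, a GTPase of large subunit assembly, read 3.87, 3.53 and 3.89 at 12 h, against 2.02, 1.96 and 1.96 at 0 h. Its log2 fold change was 1.79 ± 0.42 (adjusted p = 0.017). Polr1g, an RNA polymerase I subunit listed under the older symbol Cd3eap, changed by 1.64 ± 0.48 (adjusted p = 0.043) with 2 of 3 arrays at 0 h well above background. Eif6, which keeps new large subunits apart from small ones, changed by 1.46 ± 0.25 (adjusted p = 0.0031), and Nle1, a large subunit factor, by 1.43 ± 0.22 (adjusted p = 0.002).

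The 3 lower genes were Utp6, Ubtf and Wdr18. Ubtf, the factor that binds ribosomal DNA for RNA polymerase I, read -1.67, -1.46 and -2.02 at 12 h, against 0.13, -0.49 and -0.18 at 0 h. Its 12 h arrays lay below all 0 h arrays, with a change of -1.54 ± 0.30 (adjusted p = 0.0068), and its other probe gave -1.72. Utp6, a processome subunit, read -2.22, -2.19 and -2.02 at 12 h, against -0.68, -0.76 and -0.38 at 0 h. It changed by -1.54 ± 0.24 at 12 h against 0 h (adjusted p = 0.0022) and by 1.37 ± 0.24 at 24 h against 12 h (adjusted p = 0.011). Wdr18, of a complex that acts on large subunit precursors, changed by -1.23 ± 0.32 (adjusted p = 0.027).

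Between 1.5 and 12 h, 12 of the 103 genes were higher at 12 h and 1 lower, where 3.32% and 5% of all probes were. The number higher was 35 without 24 h replicate 2, where 9.77% of all probes were, 7 without any one of the 0 h arrays, and 3 to 6 without any one of the 1.5 h or 12 h arrays. Over all probes it was 480 to 3047 as each array was left out in turn. Polr1g, Gnl2, Eif6 and Ngdn, a processome factor, led the rise with log2 fold changes of 1.98, 1.87, 1.52 and 1.43, and Utp6 was the lower gene. At 24 h against 12 h, 8 were lower and 1 higher, which was Utp6. Over all probes 6.78% were lower and 6.26% higher, so the share of the 103 genes called lower lies near that of all probes. The number lower was 16 without 24 h replicate 2, where 7.4% of all probes were, 22 without 24 h replicate 3, 2 without any one of the 0 h arrays, 5, 2 and 2 without 1.5 h replicates 1, 2 and 3, and 0, 1 and 2 without 12 h replicates 1, 2 and 3. Over all probes it was 64 to 7589 as each array was left out in turn. Among the 8 called lower with all arrays and measured at both times, Dimt1, Nle1 and Nol10 had the largest drops. Dimt1, a methyltransferase for small subunit RNA, changed by -1.72 ± 0.36 (adjusted p = 0.02), Nle1 by -1.21 ± 0.22 (adjusted p = 0.012) and Nol10, a nucleolar protein, by -1.07 ± 0.32 (adjusted p = 0.0498). Ddx51, a helicase that was also called, was not well above background on any 24 h array, so its drop is only a bound of at least 1.19-fold lower at 24 h than at 12 h (adjusted p = 0.037). That bound includes 24 h replicate 2. On the other 24 h arrays the lowest signal called well above background averaged -4.91, above the Ddx51 mean of -5.15 at 12 h. Without 24 h replicate 2 no drop is therefore shown for Ddx51. At 1.5 h against 0 h, 0 of the 103 were called by limma with all arrays or without 24 h replicate 2, and 3 had an unadjusted p under 0.05 with all arrays. At 24 h against 0 h, 0 were called with all arrays, where 15 had an unadjusted p under 0.05, and without 24 h replicate 2 there were 3 higher and 1 lower, fewer for the list's size than the 10.3% and 6.67% of all probes.

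Myc and related factors bind the hexamer CACGTG, which is its own reverse complement and so reads the same on both strands. RefSeq promoter windows on GRCm38.p6, from 250 bases before to 50 bases after the start of transcription, were found for 33 of the 38 genes. The hexamer occurred in the windows of 7 of the 33 genes (21.2%), and in those of 8.09% of all 27025 genes and 8.91% of protein-coding genes in the table. In the 250 bases before the start it occurred for 3 of 33 genes (9.09%), and for 6.86% of all genes and 7.61% of protein-coding genes. Of the 88 other ribosome biogenesis genes with a window, 18.2% held it in the full window and 10.2% in the 250 bases before the start. The stretch around each hexamer is shown where the window holds 12 flanking bases on both sides, with the hexamer in capitals, since Imp4, Nop2, Pes1, Tsr1 and Utp18 are among the genes described above at 12 h; Wdr43 has a window but no probe.
Imp4: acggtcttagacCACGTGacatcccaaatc
Nop2: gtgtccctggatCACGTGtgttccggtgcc
Pes1: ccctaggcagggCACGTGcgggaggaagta
Tsr1: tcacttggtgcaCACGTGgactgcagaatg
Utp18: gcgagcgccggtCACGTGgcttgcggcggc
Wdr43: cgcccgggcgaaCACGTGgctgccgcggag
The stretches are chr1:34439696-34439725 (plus strand, hexamer 121 bases before the start), chr6:125131811-125131840 (plus, 60 before), chr11:3963965-3963994 (plus, 3 after), chr11:74898092-74898121 (plus, 25 after), chr11:93885769-93885798 (minus, 20 before) and chr17:71616220-71616249 (plus, 18 after). Utp20 held the hexamer 38 bases after the start, too close to the window's end to show. None of the 7 genes called at 12 h in the fit of all arrays held it, Rrp12 having no window in the table, while 6 of the 19 called without 24 h replicate 2 did. Of the 19, Rrp12 and Rrs1 had no window. A match of letters describes the window and does not make it a binding site.

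Markers of other cells were read on the same arrays. Hepatocyte markers (8 genes, mean level 5.82 to 6.43 on the 12 h arrays, against 6.08 to 6.25 on the 0 h arrays) lay high on these arrays, and 1 of 8, Ttr, was lower at 12 h. Neutrophil markers rose at 12 h against 0 h, 5 of 8 being called, with a median log2 fold change of 2.80. Their mean level was -3.20 to -2.70 on the 0 h arrays, -1.53 to -1.36 at 1.5 h, -0.33 to 0.33 at 12 h and -0.94 to -0.61 at 24 h. Macrophage markers had 1 of 6 genes higher and 2 lower at 12 h, and their mean level was 0.70 to 0.94 at 12 h, against 0.82 to 1.71 at 0 h. Called at 12 h were also 1 higher and 1 lower of 6 endothelial markers, 2 lower of 6 lymphocyte markers, 1 higher of 5 bile duct markers and 1 lower of 6 stellate cell markers. Without 24 h replicate 2, where 32.6% of all probes were higher and 16.6% lower, 6 of 8 neutrophil markers were higher. In that fit 1 macrophage marker was higher and 4 lower, 1 stellate cell marker higher and 3 lower, and 2 endothelial markers higher and 1 lower. Lymphocyte markers had 1 higher and 2 lower, hepatocyte markers 1 higher (Tat) and 1 lower, and bile duct markers 1 higher. At 24 h against 12 h, where 8 of the 36 genes were lower, 2 of 6 macrophage markers (Adgre1 and Vsig4) were higher, and 4 of 6 without 24 h replicate 2. The mean level of the macrophage markers was 1.01 to 2.40 on the 24 h arrays, against 0.70 to 0.94 on the 12 h arrays. Hepatocyte markers had a mean level of 5.35 to 5.79 on the 24 h arrays, against 5.82 to 6.43 on the 12 h arrays, and 1 of 8, Tat, was lower in both fits. Neutrophil markers had 1 of 8 lower, and 2 of 8 without 24 h replicate 2. Kdr of the endothelial and Lrat of the stellate cell markers were higher, Lrat in both fits and Kdr with all arrays. Without 24 h replicate 2, 1 of 6 lymphocyte markers was higher and 1 lower. None of the 5 bile duct markers was called in either fit. The part of changes in cell composition in the levels of the ribosome biogenesis genes was not tested.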

How the data were processed

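RNA of 12 mouse livers was measured on 1-colour (Cy3) Agilent arrays. The authors deposited scanner files made with Agilent Feature Extraction (version 10.5.1.1 per the submitters' processing notes), which hold a processed intensity for each spot, background-subtracted within the array, beside the median intensity of spot and background. They also deposited a table of log2 values whose columns have medians of 8.91 to 8.94 and correlate at 0.993 to 1.000 with log2 of the same arrays' processed signals; its normalization is not given in the sources used here and its centring is unknown, so it served as an alternative. The array design's genome build is not given in the sources used here.

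Outlier and control spots were dropped, spots of 1 probe averaged, and log2 signals taken minus the array's 75th percentile. Probes well above background on at least 3 of 12 arrays were kept (31172 of 37246; 62.8% to 85.4% of the spots that are not controls were well above background per array). Probes were named through RefSeq accessions of GRCm38.p6, which matched 22216 probes. Where a gene had several probes, the kept probe with the highest mean signal stood for it; 35 of 38 genes had 1 probe. Symbols of 3 other genes are older ones (Twistnb, Cd3eap and Znrd1 for Polr1f, Polr1g and Polr1h). One mean per time point was fitted with limma 3.58.1 in R 4.3.3, followed by eBayes, two-sided tests and Benjamini-Hochberg adjustment over all kept probes, with a threshold of 0.05. The steps were tested on simulated data. Tables and plots were made in Python 3.11.15.

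Members and lists were chosen with earlier results of these data known. Genes are shown on every array where they passed in a comparison with or without the 24 h replicate 2 array, or led their role group. Of the other genes, up to 4 at each end of a comparison are named. Files identify no slide, so the planned slide alternatives used the scan. The fixed scan block was fitted on 11 arrays, since the 24 h replicate 2 array was alone in its scan. Alternatives were normexp (offset 50), quantile normalization, centring on messenger RNA probes, the deposited values, other filters, moderations and weights, blocks, and leaving out arrays. Added after seeing the data were the combinations of a normalization with leaving out 24 h replicate 2, and the differences within a scan.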

Additional observations from a re-analysis of the deposited data

How the results depend on the processing

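The median log2 fold change of the 36 genes at 12 h v 0 h stayed above 0 under every alternative run, with values of 0.47 to 0.80, but how many genes were called depended on the processing. The median over all probes was above 0 as well, at 0.42 in the fit of all arrays and 0.38 to 0.46 when arrays were left out in turn. A median above 0 is thus not particular to these genes. Comparisons are written with v between the times, the later time first. Counts within 1.5 times of the reported one are left out, and the causes of the differences were not tested. The share of all probes called also changes with the fit. Where it is not given beside a count, that count shows only how far the calls depend on the processing. Normexp was applied to the median spot signal, and over all probes it called 179 higher and 494 lower at 12 h v 0 h. Limits: each time point had 3 arrays, no sham-operated mice were analysed here, 1 array stood apart, and scans and time points could be separated only between neighbouring times. The number of arrays and the dim probes of Wdr12, Nhp2 and Ncl limit the precision. At 1.5 h v 0 h, 0 of the 36 genes were higher with all arrays, and the count was 2 with array weights. At 1.5 h v 0 h, 0 of the 36 genes were lower with all arrays, and the count was 3 with array weights. At 12 h v 0 h, 7 of the 36 genes were higher with all arrays, and the count was 1 with normexp background correction or with scan as a fixed block, 11 with robust moderation and an intensity trend, 13 with quantile normalization or with the authors' deposited log2 values, 16 centred on messenger RNA probes without 24 h replicate 2, 19 in fits of only the groups compared or with quantile normalization and no 24 h replicate 2 array, and 20 with array weights. At 12 h v 0 h, 0 of the 36 genes were lower with all arrays, and the count was 3 with quantile normalization and no 24 h replicate 2 array. At 24 h v 0 h, 0 of the 36 genes were higher with all arrays, and the count was 1 with quantile normalization and no 24 h replicate 2 array or centred on messenger RNA probes without 24 h replicate 2, and 4 with array weights. At 24 h v 0 h, 0 of the 36 genes were lower with all arrays, and the count was 3 with array weights or with quantile normalization and no 24 h replicate 2 array or centred on messenger RNA probes without 24 h replicate 2. At 12 h v 1.5 h, 6 of the 36 genes were higher with all arrays, and the count was 0 with normexp background correction, 10 with scan as a fixed block, 11 in fits of only the groups compared, 15 with the authors' deposited log2 values or with scan as a random block or centred on messenger RNA probes without 24 h replicate 2, 19 with quantile normalization and no 24 h replicate 2 array, and 21 with array weights. At 24 h v 12 h, 0 of the 36 genes were higher with all arrays, and the count was 1 with quantile normalization or with scan as a random block or with quantile normalization and no 24 h replicate 2 array. At 24 h v 12 h, 8 of the 36 genes were lower with all arrays, and the count was 0 with normexp background correction or in fits of only the groups compared, 1 with the replicate number as a block, 2 centred on the median of messenger RNA probes or without the filter on dim probes, and 16 with array weights. 0 of the 103 other genes were higher at 1.5 h v 0 h, and the count was 12 with array weights. 0 of the 103 other genes were lower at 1.5 h v 0 h, and the count was 1 with quantile normalization and no 24 h replicate 2 array, and 9 with array weights. 18 of the 103 other genes were higher at 12 h v 0 h, and the count was 0 with normexp background correction, 3 with scan as a fixed block, 7 with scan as a random block, 11 centred on the median of messenger RNA probes, 28 with the authors' deposited log2 values, 38 centred on messenger RNA probes without 24 h replicate 2, 45 with quantile normalization and no 24 h replicate 2 array, 49 in fits of only the groups compared, and 54 with array weights. 3 of the 103 other genes were lower at 12 h v 0 h, and the count was 0 with normexp background correction, 1 with scan as a fixed block, 5 with quantile normalization or with the authors' deposited log2 values, 7 in fits of only the groups compared or with quantile normalization and no 24 h replicate 2 array, and 8 with array weights or centred on messenger RNA probes without 24 h replicate 2. 0 of the 103 other genes were higher at 24 h v 0 h, and the count was 1 centred on messenger RNA probes without 24 h replicate 2, 2 with quantile normalization or with the authors' deposited log2 values, 3 with only probes well above background on all 12 arrays or with robust moderation and an intensity trend or with quantile normalization and no 24 h replicate 2 array, and 7 with array weights. 0 of the 103 other genes were lower at 24 h v 0 h, and the count was 1 with quantile normalization and no 24 h replicate 2 array or centred on messenger RNA probes without 24 h replicate 2, and 3 with array weights. 12 of the 103 other genes were higher at 12 h v 1.5 h, and the count was 0 with normexp background correction, 6 with the replicate number as a block, 19 with only probes well above background on all 12 arrays, 20 with quantile normalization, 24 with scan as a fixed block, 25 in fits of only the groups compared, 26 with the authors' deposited log2 values, 30 with scan as a random block, 34 centred on messenger RNA probes without 24 h replicate 2, 39 with quantile normalization and no 24 h replicate 2 array, and 41 with array weights. 1 of the 103 other genes was lower at 12 h v 1.5 h, and the count was 0 with normexp background correction, 2 with robust moderation and an intensity trend, 3 centred on the median of messenger RNA probes or with only probes well above background on all 12 arrays or with scan as a fixed block, 4 with quantile normalization or in fits of only the groups compared, 5 with the authors' deposited log2 values or with array weights or with scan as a random block or centred on messenger RNA probes without 24 h replicate 2, and 6 with quantile normalization and no 24 h replicate 2 array. 1 of the 103 other genes was higher at 24 h v 12 h, and the count was 0 with normexp background correction or in fits of only the groups compared, 2 with robust moderation and an intensity trend or with scan as a fixed block, 3 centred on the median of messenger RNA probes or with only probes well above background on all 12 arrays or with scan as a random block, 4 with quantile normalization or with quantile normalization and no 24 h replicate 2 array or centred on messenger RNA probes without 24 h replicate 2, 5 with the authors' deposited log2 values, and 6 with array weights. 8 of the 103 other genes were lower at 24 h v 12 h, and the count was 0 with normexp background correction or in fits of only the groups compared, 2 with the replicate number as a block, 3 without the filter on dim probes, 13 centred on messenger RNA probes without 24 h replicate 2, 14 with quantile normalization, 15 with only probes well above background on all 12 arrays, 16 with scan as a fixed block, 19 with scan as a random block or with quantile normalization and no 24 h replicate 2 array, 27 with the authors' deposited log2 values, and 35 with array weights. The F test passed for 7 of the 36 genes, and the count was 0 with normexp background correction, 3 centred on the median of messenger RNA probes, 4 with the replicate number as a block, 11 with scan as a fixed block, 14 with the authors' deposited log2 values or with scan as a random block, 17 centred on messenger RNA probes without 24 h replicate 2, 25 with quantile normalization and no 24 h replicate 2 array, and 26 with array weights. Leaving out each array in turn gave for the 36 genes 4 to 19 higher (12 h v 0 h), 0 to 1 higher (24 h v 0 h), 2 to 17 higher (12 h v 1.5 h), 0 to 3 lower (24 h v 0 h), 0 to 12 lower (24 h v 12 h). Leaving out each array in turn gave for the 103 other genes 4 to 50 higher (12 h v 0 h), 0 to 3 higher (24 h v 0 h), 3 to 35 higher (12 h v 1.5 h), 0 to 4 higher (24 h v 12 h), 2 to 7 lower (12 h v 0 h), 0 to 1 lower (24 h v 0 h), 1 to 5 lower (12 h v 1.5 h), 0 to 22 lower (24 h v 12 h). Over all 31172 probes the same fits gave 943 to 10173 higher (12 h v 0 h), 237 to 3208 higher (24 h v 0 h), 480 to 3047 higher (12 h v 1.5 h) and 320 to 3209 higher (24 h v 12 h). Probes called lower were 1303 to 5170 (12 h v 0 h), 178 to 2080 (24 h v 0 h), 745 to 3219 (12 h v 1.5 h) and 64 to 7589 (24 h v 12 h). The F test passed for 1 to 20 of the 36 genes when each array was left out in turn. The samples were not treated as paired by replicate number in the main fit. Over 18 pairs of arrays with the same number the deviations from the group means correlated at -0.423 to 0.413, and 2 of 18 were above 0.1. With means of 3 arrays each, this check cannot exclude a pairing. With the replicate number as a block, 6 of the 36 genes were higher at 12 h v 0 h. Among single genes, 3 values turned direction: Utp18 at 24 h v 0 h became -0.195 with normexp, and Wdr12 at 24 h v 12 h became 0.323 with quantile normalization and ranged over -1.57 to 0.300 when arrays were left out in turn, being highest without 24 h replicate 1.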
